A study of Drosophila melanogaster with 2 samples.

Results

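The genes examined here encode basic helix-loop-helix (bHLH) transcription factors, and the question was at which of them chromatin was open in the neurons of the Drosophila mushroom body (MB). The 39 members were taken from a list of gene names and found by symbol in the gene annotation, among 13968 protein-coding genes in all. Each peak within 500 bp of an annotated transcription start site (TSS) of a member, or inside the member, was assigned to it. Accessibility was measured by ATAC-seq, in which the Tn5 transposase inserts adapters into open DNA and the pileup of insertions is called as peaks. The series held 2 samples, which were biological replicates of 1 group with no second group to compare. Both came from naive flies of the genotype w*;UAS-Unc84::2xGFP/+;R14H06-Gal4/+, pooled as 50 to 60 heads per sample and taken 1 h after the hour at which courtship training began in the study. The flies were males by the study's methods, and their age was not used here. The R14H06-Gal4 driver labels Kenyon cells, the intrinsic neurons of the MB, by way of the GFP-tagged nuclear envelope protein Unc84, and the study mentions faint label of a few other cells.

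bHLH proteins bind DNA as dimers, and most of them read the E-box, the hexamer CANNTG. The tissue-restricted class II factors pair with the ubiquitous partner Daughterless (Da), while Extramacrochaetae (Emc) lacks the basic region and holds class II proteins in dimers that cannot bind DNA. Proneural factors of the achaete-scute and atonal families belong to class II and commit ectodermal cells to a neural fate, mainly in embryos, larvae and pupae. The bHLH-PAS proteins carry a further dimerization domain and mostly pair with Tango (Tgo), the fly ARNT, and the bHLH-leucine zipper proteins centre on the Myc, Max and Mnt network and on regulators of metabolism. The members were grouped accordingly into 8 proneural genes, 12 other tissue-restricted class II genes, the partner da and the inhibitor emc, 2 Hairy-type repressors, 8 bHLH-PAS genes and 7 leucine zipper genes. The 13 genes for broadly used factors, against which the proneural genes were set, were da, emc, tgo, sima, tai, gce and the 7 leucine zipper genes.

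The promoters of 3 proneural genes are printed first, because they carried no peak (ac, amos) or a weak one (ato), and those of 3 broadly used genes after them, because they carried strong ones. Each runs 200 bases before to 20 after a TSS in the Release 6 (dm6) assembly and is written 5′ to 3′ on the strand of the gene, with E-boxes in capitals. The ac sequence is X:369831-370051 (plus strand), amos is 2L:18596901-18597121 (minus strand) and ato is 3R:8277852-8278072 (plus strand). The emc sequence is 3L:749200-749420 (plus strand), tai, at its downstream TSS, is 2L:9176158-9176378 (plus strand), and tgo is 3R:9020002-9020222 (minus strand).
ac: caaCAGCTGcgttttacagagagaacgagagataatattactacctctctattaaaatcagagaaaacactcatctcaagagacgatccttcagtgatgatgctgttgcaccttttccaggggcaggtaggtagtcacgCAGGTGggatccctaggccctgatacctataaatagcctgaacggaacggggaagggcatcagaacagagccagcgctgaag
amos: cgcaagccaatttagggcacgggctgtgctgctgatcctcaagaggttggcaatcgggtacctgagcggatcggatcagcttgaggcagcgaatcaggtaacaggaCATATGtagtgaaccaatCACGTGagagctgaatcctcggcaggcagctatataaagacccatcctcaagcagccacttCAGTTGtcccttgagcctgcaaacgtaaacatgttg
ato: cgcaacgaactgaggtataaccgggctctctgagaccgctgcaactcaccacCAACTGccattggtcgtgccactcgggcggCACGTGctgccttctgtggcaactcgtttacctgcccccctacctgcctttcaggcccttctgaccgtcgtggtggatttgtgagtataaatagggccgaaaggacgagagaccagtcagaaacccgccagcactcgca
emc: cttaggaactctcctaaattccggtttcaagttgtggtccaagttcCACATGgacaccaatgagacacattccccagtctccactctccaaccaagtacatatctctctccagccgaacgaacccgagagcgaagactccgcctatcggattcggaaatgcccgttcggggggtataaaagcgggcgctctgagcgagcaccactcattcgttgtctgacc
tai: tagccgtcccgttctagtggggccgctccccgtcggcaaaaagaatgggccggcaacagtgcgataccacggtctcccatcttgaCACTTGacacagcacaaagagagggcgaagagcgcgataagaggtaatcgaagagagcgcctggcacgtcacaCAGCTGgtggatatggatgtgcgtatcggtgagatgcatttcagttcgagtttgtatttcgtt
tgo: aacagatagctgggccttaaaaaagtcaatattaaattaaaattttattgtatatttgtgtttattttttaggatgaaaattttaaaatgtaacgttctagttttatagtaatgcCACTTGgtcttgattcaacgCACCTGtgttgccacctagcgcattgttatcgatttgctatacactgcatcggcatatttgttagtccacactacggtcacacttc
All 6 held at least 1 E-box, but they are picked examples. The same stretch held none at sc and tap, which had no peak, nor at ss and Fer1, which had a peak. In the longer promoter window used below, 77.3% of all protein-coding genes had an E-box. Of the printed stretches, amos had 3, ac, ato, tai and tgo had 2 each and emc had 1.

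The authors called 13868 peaks in replicate 1 and 14583 in replicate 2, of which 11705 merged regions held a peak of each replicate and are called consensus peaks. The values used below are the fold enrichment at the summit of a peak, which is the pileup over a background taken from the same library, and its percentile among the TSS peaks of that replicate. The TSS peak of a gene is the strongest peak within 500 bp of any of its TSSs, and 7997 genes had one in replicate 1 and 7995 in replicate 2. A gene without a TSS peak was given a percentile of 0. For replicate 1, the median over all peaks was a fold enrichment of 1.99 and a summit pileup of 219, with 113 as the lowest pileup called. For replicate 2, these values were 1.87, 216 and 120. Intervals in brackets are exact Poisson 95% intervals of the pileup and cover counting error only. A gene without a peak was therefore below the calling limit, which is not a measure of closed chromatin. In a pool of nuclei, a weak peak in all of them and a strong peak in a few cannot be told apart. All 12 MB marker genes of a list of identity and signalling genes, among them ey, toy and dac, had a TSS peak in both replicates. So did 2 of 4 glial genes, 1 of 4 photoreceptor genes and 0 of 2 genes each of fat body, muscle and blood cells. Over all protein-coding genes the share was 55.9%. The lists were not matched for gene length. Its median was 29.1 kb for the MB genes, against 4.62 kb for glia and 6.21 kb for photoreceptors. It was 2.97 kb for fat body, 12.2 kb for muscle and 8.78 kb for blood cells. The part of other cells in the peaks below was not tested.

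TSS peaks were counted by role. In both replicates a TSS peak was found at 25 of the 39 members (64.1%), against 55.9% of all protein-coding genes. Only 1 of 8 proneural genes had one, against 13 of 13 genes for broadly used factors. All 8 bHLH-PAS genes and all 7 leucine zipper genes had a TSS peak, as did da, emc and 7 of 12 restricted class II genes, whereas the 2 Hairy-type repressor genes, dpn and Hey, had none. Calls were the same in both replicates for all 39 genes. The Poisson intervals of the replicates overlapped for 25 of 25 genes, although at sima they belonged to different peaks. The median difference in percentile was 3.34 points and the largest was 14.6 points, at Fer3.

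**Figure D1:**
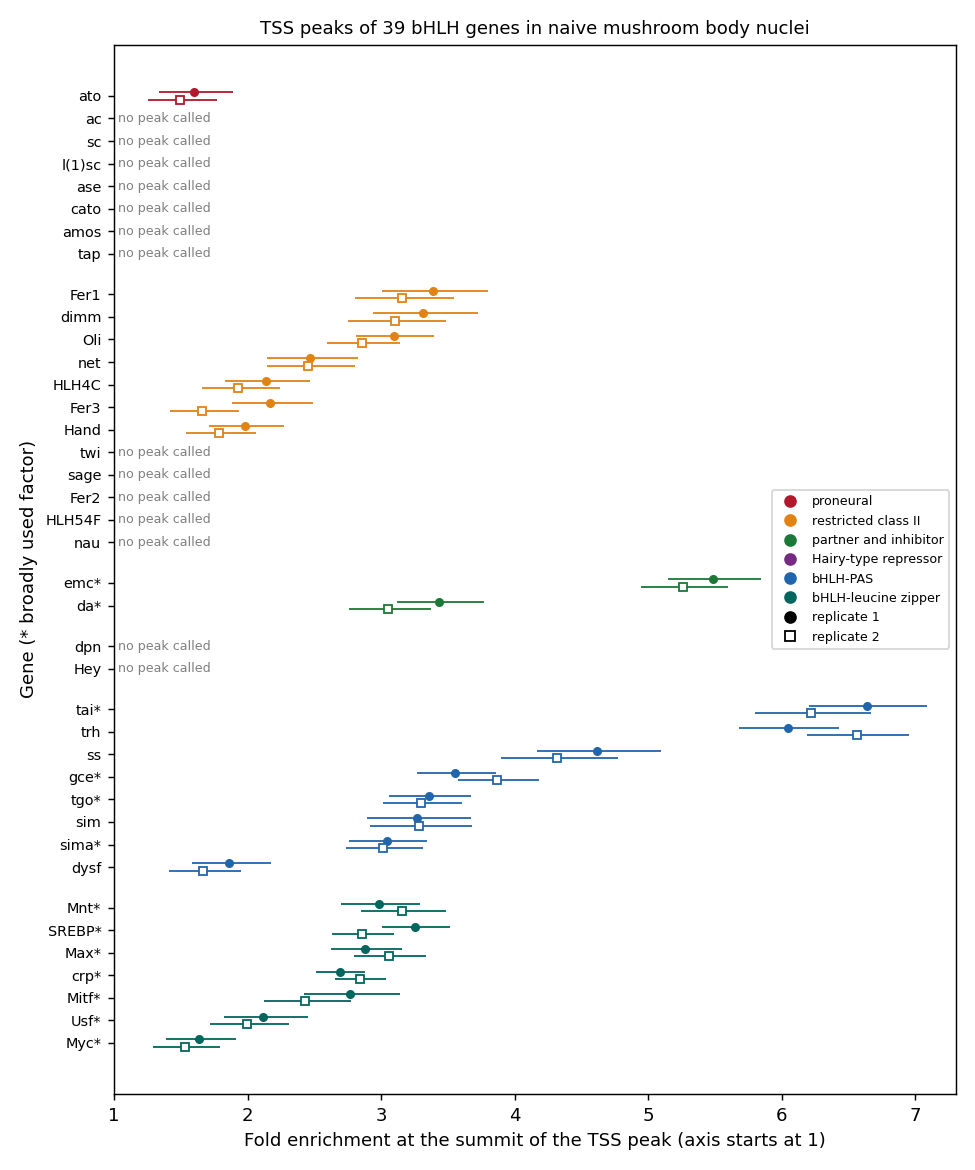
Fold enrichment at the summit of the TSS peak (horizontal axis, a ratio) of each of the 39 bHLH genes, grouped by role, with filled circles for replicate 1, open squares for replicate 2, and bars for exact Poisson 95% intervals. No peak was called at 7 of 8 proneural genes, and the highest values, between 6.05 and 6.63, belonged to tai and trh.

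Of the proneural genes, ac, sc, l(1)sc, ase, cato, amos and tap had no TSS peak in either replicate, and none of these 7 had a peak inside the gene. The first 4 make up the achaete-scute complex, in which ac and sc specify sensory bristles, l(1)sc promotes the formation of neuroblasts and ase acts in neural precursors. The other 3 are relatives of atonal: cato acts in chordotonal sense organs, amos in olfactory sensilla, and tap is related to the vertebrate neurogenins. The exception was ato, which specifies chordotonal organs and the founder photoreceptors of the eye. Its peak reached a fold enrichment of 1.60 (1.34 to 1.89) in replicate 1 and 1.5 (1.25 to 1.77) in replicate 2, at a pileup of 133 in both. It ranked 7371 of 7997 and 7515 of 7995, which put ato among the weakest TSS peaks of either list, not far above the calling limit. The peak lay at 3R:8277890-8278028 in replicate 1 and 3R:8277917-8278075 in replicate 2, and only the second reached the TSS at 8278052.

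The achaete-scute complex lay in one of the longest stretches of the genome without a peak. No peak of either replicate was called over the 93.1 kb between the start of ac (X:370031-370947) and the end of ase (X:460747-463176), whereas chromosome X as a whole had 0.656 consensus peaks per 10 kb. The peak-free stretch ran over X:360471-472508 and its length of 112 kb ranked 41 among 15835 stretches between neighbouring peaks, whose median was 3.64 kb. On X it ranked 6 of 1907. It held 6 whole protein-coding genes, the 4 of the complex and Pgcl and Cyp4g1, and the complex lies within the span of CG32816 on the other strand. The stretch between ac and ase contained 0 unknown bases, and 14.0% of it was masked as repeats, against 21.0% of chromosome X. How well reads map there was not tested. At its left edge was a peak of replicate 2 alone at X:360299-360470, with a fold enrichment of 1.46 (1.22 to 1.73). At its right edge, 102.9 kb from the ac TSS, a consensus peak at X:472509-473295 had 2.04 (1.75 to 2.37) in replicate 1 and 1.85 (1.58 to 2.16) in replicate 2.

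**Figure D2:**
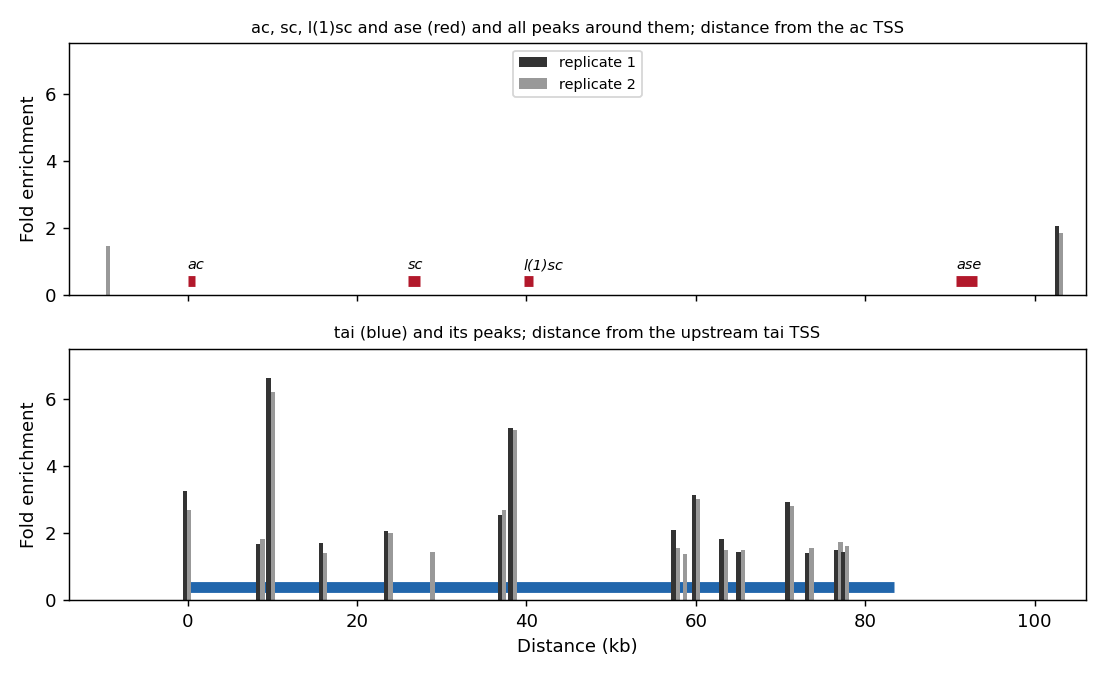
Fold enrichment (vertical axis, a ratio) of all peaks around the achaete-scute complex (upper panel, genes in red) and of the peaks of tai (lower panel, gene in blue) on the same scale of distance in kb, with dark bars for replicate 1 and light bars for replicate 2. The 93.1 kb from ac to ase held 0 peaks, and tai, with a length of 83.4 kb, held 15 consensus peaks.

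The lack of peaks reached beyond the gene bodies. The distance between the TSS and the nearest consensus peak was 74.7 kb at ac, 76.4 kb at sc, 62.8 kb at l(1)sc and 11.8 kb at ase. Only 124 protein-coding genes (0.888%) lay as far as l(1)sc or farther. Outside the complex the distances were shorter, at 6.17 kb for tap, 5.06 kb for amos and 1.45 kb for cato. Within 10 kb of the TSS, proneural genes had a median of 0.5 consensus peaks (0 to 3), broadly used genes had 3 (2 to 6), and all protein-coding genes had a median of 3. No consensus peak at all lay within this distance at 4 of 8 proneural genes and 0 of 13 broadly used genes, against 11.5% of all protein-coding genes. These 4 are neighbours in 1 cluster and are not independent cases.

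**Figure D3:**
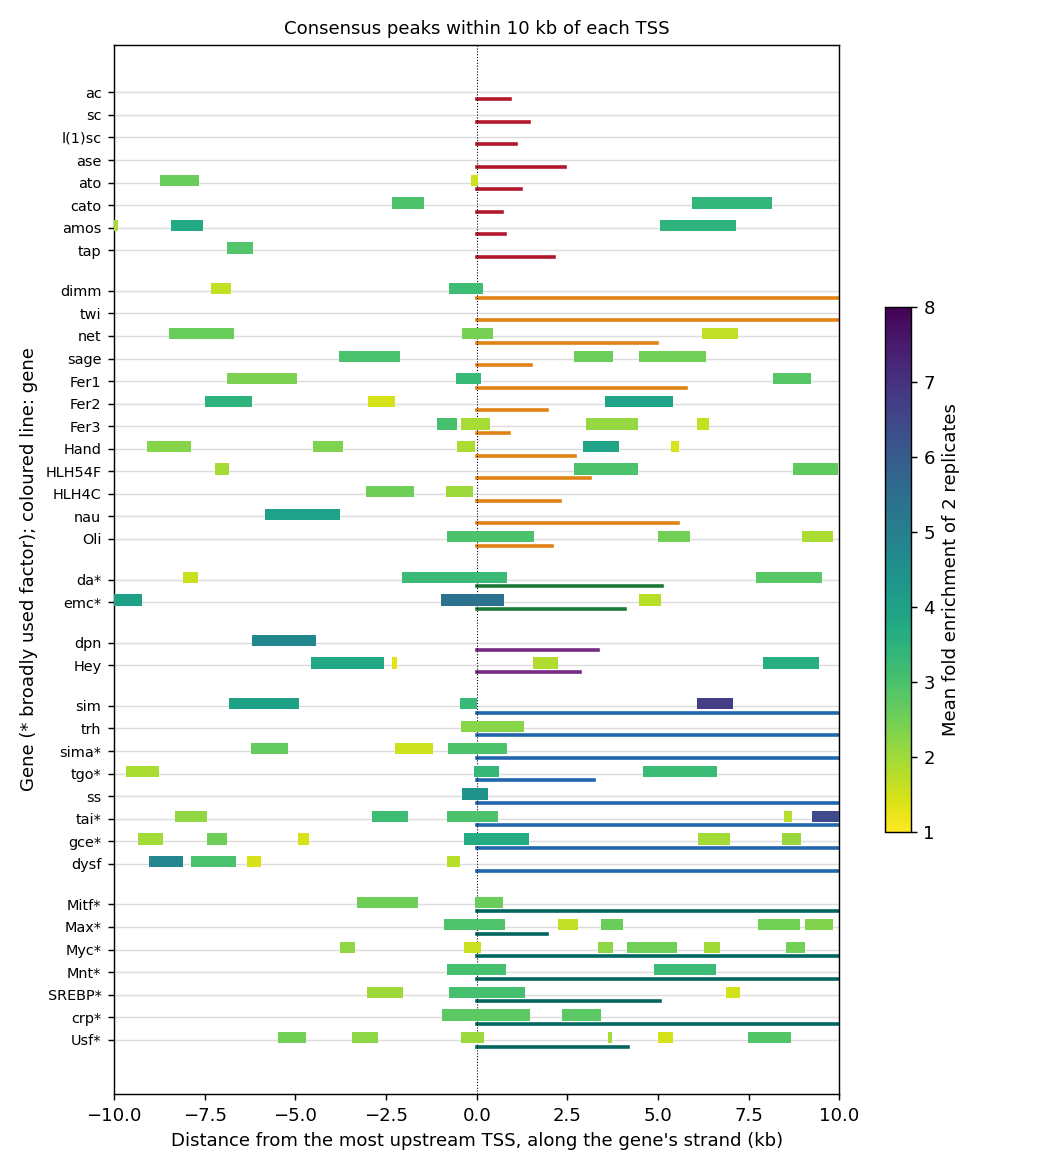
Consensus peaks (boxes, coloured by mean fold enrichment over the 2 replicates) within 10 kb of the most upstream TSS of each bHLH gene, drawn along the strand of the gene with the gene itself as a coloured line. The 4 genes of the achaete-scute complex have an empty row, and each of the 13 broadly used genes, marked by an asterisk, has 2 to 6 peaks.

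Proneural genes are short and compact, and part of the contrast can be read against genes built like them. All 8 have 1 exon and 1 TSS and are 0.712 to 2.43 kb long. A TSS peak was found at 48.4% of all genes with a single TSS and at 26.7% of all genes with 1 exon, so the 1 of 8 (12.5%) at proneural genes lay below both. On chromosome X as a whole the share was 54.2%. Among the broadly used genes, the 8 with a single TSS all had a TSS peak, and the other 5 belong to the genes with more than 1 TSS, of which 76.7% had one. With 8 genes, of which 4 are neighbours, the gap to 1-exon genes was not tested.

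The restricted class II genes were mixed. The strongest TSS peaks of this group were at Fer1, dimm and Oli. Fer1, a relative of the pancreatic factor gene Ptf1a of vertebrates, reached a fold enrichment of 3.39 (3.00 to 3.80) in replicate 1 and 3.16 (2.80 to 3.55) in replicate 2. The values of dimm, a master gene of neurosecretory cells, were 3.31 (2.94 to 3.73) and 3.10 (2.75 to 3.49). Oli, the fly Olig gene, which acts in motor neurons, had 3.09 (2.81 to 3.40) and 2.86 (2.59 to 3.14), and its peak covered all 3 of its TSSs. Their mean percentiles were 68.8, 66.7 and 58.7 by fold enrichment, but 34.3, 33.0 and 65.2 by summit pileup, and the background of Fer1 and dimm was at the lowest value of the library. net, which restricts wing veins, stood in the middle at a percentile of 39.1. The weakest were HLH4C at 2.13 and 1.93, Fer3 at 2.17 and 1.66 and Hand, a heart and visceral muscle gene, at 1.98 and 1.79. The peak assigned to HLH4C also lay within 500 bp of the TSS of mRpL30, a mitochondrial ribosomal protein gene.

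The other 5 restricted genes, twi, sage, Fer2, HLH54F and nau, had no TSS peak. They act in mesoderm (twi), salivary gland (sage), dopaminergic and clock neurons (Fer2), visceral muscle precursors (HLH54F) and body wall muscle (nau, the fly relative of MyoD). sage, Fer2 and nau had no peak of any kind, and their nearest consensus peaks were 2.12, 2.26 and 3.76 kb away. The annotated span of twi is 63.0 kb long and held 4 consensus peaks, all in introns and none closer than 2.68 kb to a twi TSS. The strongest, at 2R:22998514-22999477, had 3.98 (3.60 to 4.40) in replicate 1 and 3.81 (3.44 to 4.20) in replicate 2. It lay within 500 bp of the TSS of CG9896, and another at 2R:23042697-23043431, with 3.65 and 3.56, lay near that of CG42741, so that 2 of the 4 were also TSS peaks of other genes.

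The partner gene da and the inhibitor gene emc were both open. emc reached a fold enrichment of 5.49 (5.15 to 5.84) in replicate 1 and 5.26 (4.94 to 5.60) in replicate 2, on a pileup of 986 and 1007, and ranked 123 in both lists. This placed emc at a percentile of 98.5, in the top 10% of TSS peaks with only 3 other members. Its peak at 3L:748421-750151 in replicate 1 lay within 500 bp of no TSS of another protein-coding gene. The summit in that replicate was 440 bp upstream of the emc TSS and inside another gene, hng3. da had 3.43 (3.12 to 3.77) and 3.05 (2.76 to 3.37), at a mean percentile of 67.6, but its peak also lay within 500 bp of the TSSs of Cdk1, the mitotic kinase gene, and of mRpS7. The Hairy-type repressor genes had no TSS peak. dpn, which maintains neuroblasts, had no peak of any kind and its nearest consensus peak was 4.44 kb away, and Hey, a Notch target of newborn neurons, had an intronic peak of 1.86 (1.62 to 2.13) and 1.80 (1.57 to 2.05).

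The bHLH-PAS genes had the strongest TSS peaks among the members. tai, which encodes a steroid receptor coactivator, had 6.63 (6.20 to 7.09) in replicate 1 and 6.22 (5.80 to 6.67) in replicate 2, and ranked 22 and 32 of all genes. trh, known for tracheal and salivary duct fate, had 6.05 (5.68 to 6.43) and 6.56 (6.19 to 6.95), and ranked 50 and 22. Both genes owed this to the peak over their downstream TSS. The trh peak covered that TSS in both replicates, but its summit lay in an intron, more than 500 bp upstream of the TSS. This summit was at 3L:378100 in replicate 1 and 3L:378123 in replicate 2, and the TSS was at 377316. At the upstream TSS, tai had 3.27 and 2.69 and trh had 2.38 and 2.11, so that the downstream value was higher in both replicates of both genes. The printed tai promoter is the one at the strong, downstream TSS. The peak of ss, a dioxin receptor relative that acts in antennal and colour photoreceptor identity, followed with 4.61 (4.17 to 5.10) and 4.32 (3.90 to 4.77), at a percentile of 93.5.

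The other bHLH-PAS genes lay lower. gce, a juvenile hormone receptor gene, had 3.55 (3.27 to 3.86) and 3.87 (3.58 to 4.18), and tgo, the common partner, had 3.36 (3.06 to 3.68) and 3.30 (3.01 to 3.60). sim, the master gene of the ventral midline, had 3.27 (2.89 to 3.68) and 3.28 (2.92 to 3.68), and the intervals of tgo and sim overlapped in both replicates. sima, the fly HIF-alpha gene of the hypoxia response, was open at both its most upstream TSS, with 2.96 and 3.01, and its downstream TSS, with 3.04 and 2.80. These values were so close that a different one of them was the stronger in each replicate, and sima was the 1 gene of 25 whose TSS peaks shared no bases between replicates. dysf, a gene of tracheal fusion cells, was the weakest of the group at 1.86 (1.58 to 2.17) and 1.66 (1.41 to 1.95), and its consensus peak began 459 bp upstream of the TSS.

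All leucine zipper genes had a TSS peak, but none was in the top 10%. Mnt, the repressor that competes with Myc for Max, had 2.98 (2.70 to 3.29) in replicate 1 and 3.16 (2.85 to 3.49) in replicate 2. SREBP, a regulator of lipid synthesis, had 3.25 (3.00 to 3.52) and 2.85 (2.63 to 3.09), and Max, the shared partner, had 2.88 (2.63 to 3.16) and 3.05 (2.79 to 3.33). The order of these 3 was not the same in both replicates, and their intervals overlapped. crp, the fly relative of AP-4, had 2.69 (2.51 to 2.88) and 2.84 (2.66 to 3.04), and Mitf, a regulator of lysosomal genes, had 2.77 (2.42 to 3.14) and 2.43 (2.12 to 2.78). Both stood near the middle of all TSS peaks, at mean percentiles of 51.1 and 44.8. Usf, named for its relation to the vertebrate upstream stimulatory factors, had 2.12 (1.82 to 2.45) and 2.00 (1.72 to 2.31). Myc, the growth regulator, had the weakest TSS peak of all broadly used genes, with 1.64 (1.39 to 1.91) and 1.53 (1.29 to 1.80), at percentiles of 9.09 and 6.84. Its interval overlapped that of ato in each replicate, so these 2 promoters were not separated in strength although one belongs to the broadly used and the other to the proneural genes.

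Taken by groups, the median TSS percentile was 0 for the proneural genes in both replicates, against 58.5 in replicate 1 and 63.8 in replicate 2 for the broadly used genes, or 61.1 ± 3.77 (SD of the 2 replicates). Over the 18 members in neither group the median was 18.5, over all 39 members 23.5, and over all protein-coding genes 13.0. Among genes with a TSS peak, the median was 60.4 for the 25 members, against 51.0 for all protein-coding genes. Of the 13 broadly used genes, 10 lay above the median TSS peak. Some of these peaks were shared with neighbouring genes. The TSS peak of 6 of the 13 lay within 500 bp of the TSS of another protein-coding gene (da, Max, Mnt, SREBP, crp and Usf). The only proneural TSS peak, that of ato, lay near no such TSS, so the groups cannot be compared in this. The share over all genes with a TSS peak was not counted. Reads cannot be divided between neighbouring promoters. Without such shared peaks, 8 of the 13 had a consensus peak at a TSS, and so did 19 of all 39 members. The same exclusion was not applied to all protein-coding genes, so these 2 counts have no share to be read against.

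Fold enrichment and pileup gave different orders among the open members. The summit pileup in replicate 1 was 133 at ato, against a median of 460 (154 to 986) at the broadly used genes, and in replicate 2 it was 133, against a median of 489 (145 to 1007). The other 11 open members had medians of 273 (155 to 1005) and 277 (148 to 1135). The background was at the lowest value of the library, 82.9 in replicate 1 and 88.6 in replicate 2, for ato and for 7 of these 11 (dimm, net, Fer1, HLH4C, sim, ss and dysf), but for only 1 of the 13 broadly used genes, Mitf. Ranked by pileup instead of fold enrichment, the median percentile among open promoters was 71.3 for the broadly used genes and 33.0 for the other 11, where fold enrichment gave 61.1 and 58.7. Single genes moved further. crp, with a pileup of 837 and 855 over a background of 310.3 and 300.2, stood at 97.3 by pileup, while Fer1 and sim fell to 34.3 and ss to 56.6. emc, tai and trh stood high by either measure, at 99.3, 97.1 and 99.6 by pileup.

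Beyond the promoters, 28 of 39 members had a consensus peak near a TSS or inside the gene, against 59.8% of all protein-coding genes. This share depends on gene length. It was 44.0% for genes under 2.5 kb, the class of all 8 proneural genes, of which 1 had a peak, and 92.6% for genes over 15 kb. The 11 members without any peak were ac, sc, l(1)sc, ase, cato, amos, tap, sage, Fer2, nau and dpn. The members held 76 consensus peaks, 30 near one of their TSSs and 46 further inside, with 39 of these summits in introns and 6 in exons. The bHLH-PAS genes had 23 of the internal peaks and the leucine zipper genes 17. Another 11 regions were called in 1 replicate alone, and all were weak, with a fold enrichment of 1.3 to 1.5.

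Internal peaks were weaker than TSS peaks, with medians of 2.04 against 2.97 for the mean fold enrichment, but some were stronger than the promoter of the same gene. An intronic peak of sim at 3R:13063824-13064822 had 7.04 (6.49 to 7.64) in replicate 1 and 6.43 (5.91 to 6.97) in replicate 2. It stood at percentiles of 99.9 and 99.8 of all peaks, and its summit lay 1783 bp past the nearest sim TSS, which itself had no peak. This was the strongest peak assigned to any member in replicate 1. Its 121 bases around the summit (3R:13064245-13064365, plus strand) held no E-box, and the share over all internal peaks was not counted. Within 50 bp of the summit, 29.7% of all genes with a TSS peak had an E-box. The 121 bases are printed here.
sim: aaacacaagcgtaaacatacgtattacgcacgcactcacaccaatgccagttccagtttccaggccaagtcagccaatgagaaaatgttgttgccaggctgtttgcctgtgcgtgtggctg
sima had an intronic peak of 4.96 and 4.87 at 3R:30089948-30091333, above either of its open promoters. For Mnt, the strongest internal peak, with 3.18 and 3.26, was close to the TSS peak, with 2.98 and 3.16. For crp it had 3.30 and 3.48, above the 2.69 and 2.84 at the TSS. For Myc the peaks at X:3377311-3378695, with 2.52 and 2.51, and at X:3381679-3382221, with 2.5 and 2.49, were both stronger than the TSS peak, with 1.64 and 1.53. The intronic peak of tai at 2L:9204426-9205865 had 5.13 and 5.08, below its downstream promoter.

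Long bHLH genes differed in how many peaks they held. tai alone had 15, sima and Mnt had 8 each and crp had 6, which made up 37 of the 76. Genes of 15 to 35 kb had a median of 2 consensus peaks (quartiles 1 and 4, 818 genes). In this range of length, Mnt with 8, crp with 6 and Myc with 5 lay above the upper quartile, gce with 4 lay on it and Mitf with 3, sim and trh with 2 each and ss and dysf with 1 each lay within the quartiles. tai, at 83.4 kb, had 15 where genes of 64 to 128 kb had a median of 7. sima, at 63.5 kb, had 8 where genes of 32 to 64 kb had a median of 4, which was the number at twi. Density was taken over the gene with 500 bp added on each side. Per 10 kb, the median was 2.56 consensus peaks for leucine zipper genes, 1.96 for broadly used genes and 1.27 for all protein-coding genes. It was 1.58 for restricted class II genes, 1.09 for bHLH-PAS genes, 0.907 for members neither proneural nor broadly used and 0 for proneural genes.

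**Figure D4:**
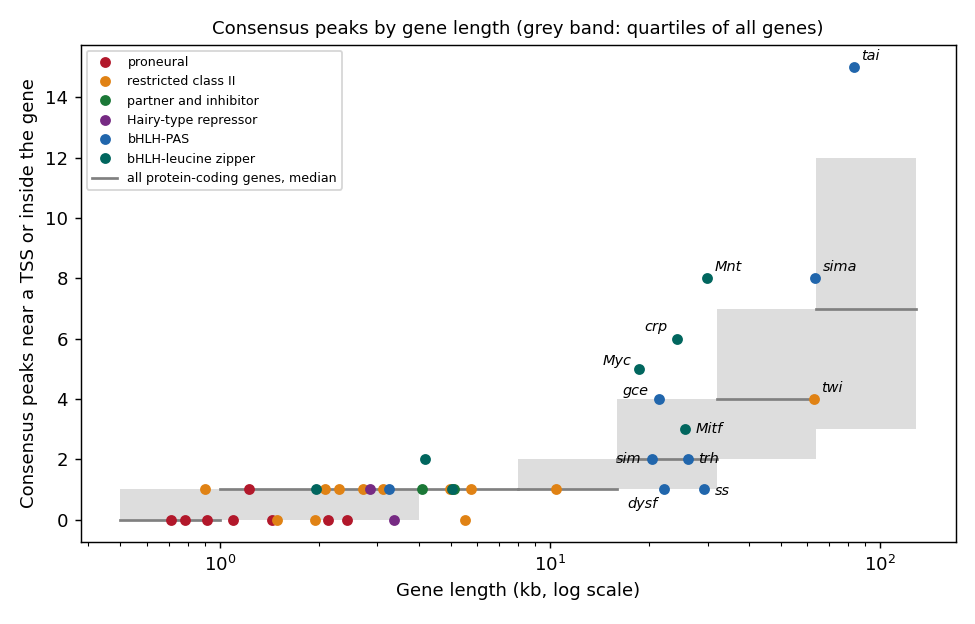
Number of consensus peaks near a TSS or inside the gene (vertical axis) against gene length in kb (log axis) for the 39 bHLH genes, coloured by role, with the median (grey line) and quartiles (grey band) of all protein-coding genes of like length. tai (15), sima and Mnt (8 each), crp (6), Myc (5) and Usf (2) lie above the band, and 11 genes, of which 7 are proneural, lie at 0.

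Promoter sequence was compared with the peaks in windows of 250 bases before to 50 after the most upstream TSS. An E-box (CANNTG, which is the same on both strands) was found at 6 of 8 proneural genes, 12 of 13 broadly used genes and 32 of 39 members (82.1%), against 77.3% of all protein-coding genes. The share at proneural genes, 75%, lay near that of all genes. The palindrome CACGTG, a special case of the E-box that Myc and Max bind, was present at 2 of 8 proneural genes, ato and amos, 0 of 13 broadly used genes and 4.23% of all genes, and both copies can be seen in the printed sequences. GAGAGAG, the repeat read by GAGA factor, was searched on both strands and occurred at sc, amos and tap and at 1 of 13 broadly used genes, against 5.86% of all. TATCGATA, the motif of the factor DREF at housekeeping promoters, was at 0 of 39 members and 9.36% of all genes. The promoters also differed in base composition, with a median GC content of 50.8% at proneural genes, against 35.2% at broadly used genes and 37.9% at all protein-coding genes. Its part in the calls was not tested.

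At the summits of the TSS peaks, E-boxes were not more common than at other genes. A motif was counted where it lay within 100 bp of the summit in both replicates. By this rule, CANNTG occurred at 11 of 25 members (44.0%), against 58.4% of all genes with a TSS peak, and at 4 of the 13 broadly used genes. The 11 were ato, dimm, Fer3, Hand, HLH4C, emc, sim, trh, tai, Max and Usf. CACGTG was found at ato alone, against 2.93% of all genes with a TSS peak. CAGCTG was found at tai alone, against 12%, while dysf had it in replicate 1 only. The core ACGTG of PAS dimers, which overlaps CACGTG, was at ato, ss, trh and tai, against 16.2%. Mnt had ACGTG in replicate 1 only and crp in replicate 2 only. These matches are letters in a window and not evidence of binding.

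Of 17 other bHLH genes of the fly, outside the 39, a TSS peak was found at 10 (58.8%) in both replicates, against 55.9% of all protein-coding genes, with a median percentile of 35.5. The circadian repressor gene cwo had 5.77 and 5.29 at a percentile of 98.7, Mondo, a sugar sensor that pairs with bigmax, had 3.97 and 4.0, and hry, the segmentation gene hairy, had 3.68 and 3.57. The circadian pair Clk, with 2.75 and 2.65, and cyc, with 2.85 and 2.5, lay near the middle of the list. Of the 7 genes for E(spl) repressors, which answer to Notch, 2 had a TSS peak, and HLH3B and CG33557 had none.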

How the data were processed

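ATAC-seq was carried out by the authors on MB nuclei of naive flies, in 2 replicates of 1 group that shared 1 label. According to the submitters' processing notes, Trimmomatic 0.39, Bowtie2 2.4.1, the dm6 genome and MACS2 2.1.2 were used. By the study's methods, reads were shifted for the Tn5 offset, duplicates and reads of ambiguous, mitochondrial or scaffold origin were removed, and peaks were called in each replicate alone at a q-value of 0.01. The deposited fold enrichment is a ratio of the summit pileup to a background from the same library, so open DNA around a summit can lower it. The authors also deposited the −log10 of the p-value, the −log10 of the q-value and an integer score, which was not used.

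The study's methods give the number of reads kept in each replicate, which was not used here. The pileup of each peak was solved from its p-value under a Poisson model and its fold enrichment, to which the caller adds a pseudocount of 1, and came out within 0.0183 of a whole number in replicate 1 and 0.0221 in replicate 2. At the median pileup the counting error was 6.76% and 6.80%. This solution was tested on simulated data. Fragments were not tagged with molecular identifiers, so intervals cover counting error only.

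Genes and TSSs came from the Ensembl annotation of BDGP6, whose chromosome lengths contained all peaks, and sequences from the RefSeq Release 6 genome. Peaks of the 2 replicates that shared at least 1 bp were merged. No test between groups was possible, and lists were described by counts and medians beside those of all protein-coding genes. The members and lists were chosen with earlier results of these data known. All 39 members were named. The values of 1 peak are not reported here. Replicate values were printed for the proneural genes, for the highest and lowest 3 of each role group and for genes with their strongest peak away from a TSS. The alternatives were a stricter q-value, other TSS windows, other measures for ranking, stricter sharing and each replicate alone. Python 3.11.15, numpy 2.4.6, pandas 2.3.3, scipy 1.17.1 and matplotlib 3.10.9 were used.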

Additional observations from a re-analysis of the deposited data

How the results depend on the processing

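The contrast kept its direction under all alternatives that gave a value for both groups. The 1 proneural gene with a TSS peak, ato, was lost at a −log10 q of at least 5 and where the TSS itself had to be covered in both replicates, which left 0 of 8, while all 13 broadly used genes kept theirs in both cases. With the replicate peaks required to overlap reciprocally by 50%, 12 of the 13 did. The median percentile of the broadly used genes was 65.5 when ranked by −log10 q and 71.3 by summit pileup, and that of the proneural genes was 6.83, from ato alone, when only genes with a TSS peak entered. With 50 bp on each side of the summit, 7 of 25 members (28%) had an E-box in both replicates, against 29.7% of all genes with a TSS peak. The gap seen with 100 bp was thus nearly absent in the smaller window. Each replicate alone gave 25 to 25 members with a TSS peak, 1 to 1 proneural and 13 to 13 broadly used genes, medians of 0 to 0 for proneural and 58.5 to 63.8 for broadly used genes, 28 to 28 members with any peak, 82 to 85 peaks and 13 to 14 members with an E-box. The members with a TSS peak numbered 24 at the stricter q-value, 21 with a peak over the TSS, and 25 within 1000 bp. Without peaks near a TSS of another gene, 23 members had a peak near a TSS or inside and 65 peaks were assigned. This exclusion was not applied to all protein-coding genes. For the 25 single genes with a TSS peak, apart from leaving out a replicate, 66 percentiles moved by more than 1 SD of the replicates and 84 by less. With the most upstream TSS alone trh fell to a percentile of 32.1 and tai to 59.7, and Fer3 stood at 62.0 within 1000 bp. HLH4C, Hand and dysf stood at 0 under the rule that a peak covers the TSS. No paired analysis was possible because there was 1 group. The lowest pileups called at this depth were 113 in replicate 1 and 120 in replicate 2. Where the background was higher, the pileup needed for a call was higher too.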
